A study of Mus musculus with 6 samples.

Results

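MAR1HI cells, sorted from mouse bone marrow as CD34-negative cells with a high IgE receptor level, were compared with BaP cells, the CD34-positive population that the labels name as basophil precursors. The members were the 2 MAR1HI and the 2 BaP libraries of 6 in the series, described over 11188 of 24532 listed genes: those with a TPM (each gene as a share of all transcripts, a level scaled by gene length) of 1 or more in at least 2 of these 4 libraries. The BaP gate took cells without lineage markers and without c-Kit that carried CD34 and bound MAR1, a monoclonal antibody to the chain of the high-affinity receptor that holds IgE. The MAR1HI gate also took cells without lineage markers and c-Kit, but without CD34, with CD200R3 and with a high MAR1 signal. All cells came from the marrow of C57BL/6J mice without a stated treatment, and the submitters describe the libraries of each population as biological duplicates. The number, age and sex of the animals, any pooling and the antibodies of the lineage mix were not given in the sources used here. CD34, CD200R3 and MAR1 parted the gates, so the transcripts of Cd34, Cd200r3 and Fcer1a check the sort and are not independent of it.

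Basophils are rare granulocytes that arise in the bone marrow and leave it with their granules already filled. IgE bound to their high-affinity receptor lets an allergen start a signal that releases histamine, lipid mediators and cytokines such as interleukin-4. Precursors carry surface proteins of earlier progenitors, including CD34, and lose them as they mature. The comparison addresses what else differs between the CD34-positive and the CD34-negative, MAR1-high populations.

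The deposited tables stood for 4.83 to 5.28 gigabases of aligned sequence per library, and 10710 to 11544 genes reached a TPM of 1. Duplicates differed by a median SD of 0.19 (log2) in BaP and 0.31 in MAR1HI, with correlations across genes of 0.959 and 0.977 (genes are not independent replicates). Histone genes took 15.6% and 18.0% of all TPM in BaP and 18.95% and 12.3% in MAR1HI. The BaP libraries differed from each other in markers of other cell types: summed neutrophil marker levels were 6471 and 11930 TPM in BaP replicates 1 and 2, and summed dendritic cell marker levels were 1038 and 403 TPM. These libraries are bulk samples, so a gene at a lower level may stand for fewer cells of a type or for less RNA per cell, and these cannot be told apart.

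Of the 11188 genes, 1059 (9.47%) differed between MAR1HI and BaP at an adjusted p under 0.05, with 714 (6.38%) higher and 345 (3.08%) lower in MAR1HI. Changes are differences of mean log2(TPM + 1), MAR1HI minus BaP, tested with limma and adjusted over all genes by the Benjamini-Hochberg method. The log2 change was 2 or more for 90 of the genes that rose and -2 or less for 91 of those that fell. Among the genes that rose, the TPM values of the groups did not overlap in 696, against 38.4% of all tested genes with both MAR1HI libraries above both BaP libraries. Among those that fell, 334 did not overlap, against 15.3% of all tested genes with MAR1HI below BaP. Genes called for a large difference of means seldom overlap, so these counts are no separate support for the calls.

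**Figure D1:**
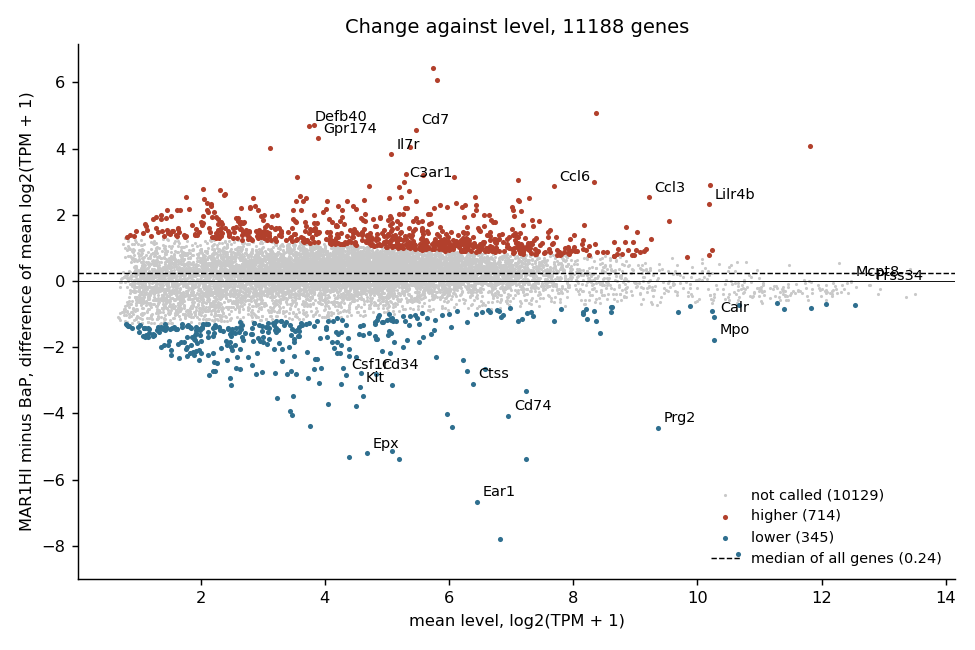
Difference between MAR1HI and BaP in mean log2(TPM + 1), on the vertical axis, against log2(mean TPM + 1), with the mean over the 4 libraries, for each of 11188 tested genes. Red points are the 714 genes called higher in MAR1HI, blue points the 345 called lower and grey points the others, and the broken line marks the median of all genes at 0.24. Mcpt8 and Prss34 lie near 0 at the right end, while Ear1, Epx and Cd74 lie far below 0.

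The split between higher and lower depended on the scaling. The median tested gene stood 0.24 (log2) higher in MAR1HI in TPM, against 0.03 in FPKM, 0.03 with quantile-normalized values and -0.004 with median-of-ratios factors, so a TPM change near 0.24 equals no change relative to the other genes. Most of this shift lay in MAR1HI replicate 2: the TPM median was 0.045 without it and 0.432 without MAR1HI replicate 1. The median-of-ratios factors were 0.9154 and 0.9198 for BaP replicates 1 and 2 and 0.9503 and 1.278 for those of MAR1HI. Genes called higher made up 67.4% of all calls in TPM, 46.8% in FPKM, 47.2% with quantile-normalized values and 45.5% with median-of-ratios factors. Under all 4 scalings, 285 genes (2.55% of those tested) were called higher and 208 (1.86%) lower, and each of the 1059 genes kept its direction. These are called stable under scaling below, and the counts of each gene list are read against 6.38% and 3.08% of all tested genes in TPM.

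With 2 libraries a group the calls rest on a spread shared among genes. limma estimated infinite prior degrees of freedom, so that each gene was tested with the spread typical of its level and not with its own, and the adjusted p of a gene whose duplicates disagree is too small. With FPKM, quantile-normalized values and median-of-ratios factors the median prior degrees of freedom were 4.83, 4.02 and 4.69, so each gene's own spread entered there. A call lost under these scalings can therefore stem from the scaling or from duplicates that disagree, and these were not separated. The smallest p that an exact permutation of these 4 libraries allows is 0.333. With the spread taken from all 6 libraries of the series, 221 genes were called higher and 89 lower, and with each gene's own spread 0 and 0 (1103 genes had an unadjusted p under 0.05). The 285 rises and 208 falls stable under scaling outnumber the calls with the spread of all 6 libraries, so part of them is lost there. Examples are the falls of Clec4a2, Ifi27l2a and Myb described below (limma adjusted p = 0.432, 0.411 and 0.145 with that spread). Without BaP replicate 1, BaP replicate 2, MAR1HI replicate 1 and MAR1HI replicate 2 in turn, 160, 161, 785 and 60 genes were called higher and 132, 141, 138 and 89 lower. A total of 55 genes were called higher and 40 lower with every 1 of the 4 left out in turn.

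**Figure D2:**
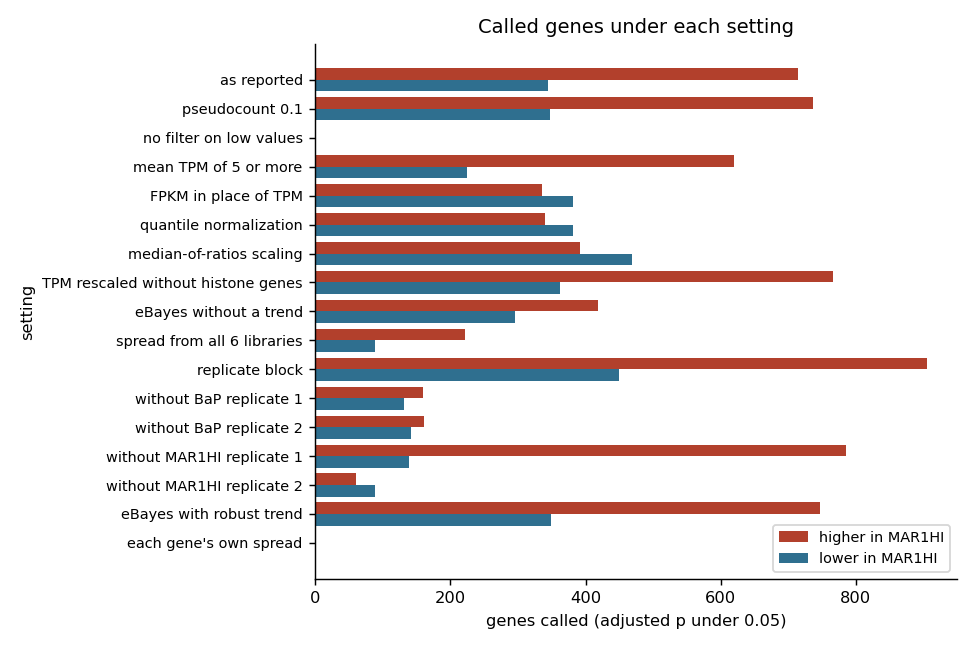
Number of genes called at an adjusted p under 0.05, on the horizontal axis, under each processing choice on the vertical axis, with genes higher in MAR1HI in red and lower in blue. Genes called higher ranged from 0 without a filter on low values to 905 with the replicate number as a block, and those called lower from 0 to 469.

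Of the genes of the sort, Cd34 was lower and Cd200r3 higher in both MAR1HI libraries, as in the gates. Cd34 (gene 12490, mm10 chromosome 1, 194938821 to 194961292) stood at 52.6 and 44.1 TPM in BaP and 4.67 and 7.63 TPM in MAR1HI (log2 change -2.81 ± 0.38 SE). Kit (gene 16590, mm10 chromosome 5, 75574987 to 75656721), the receptor of stem cell factor, stood at 44.9 and 38.6 TPM in BaP and 2.94 and 4.36 TPM in MAR1HI (log2 change -3.21 ± 0.40 SE), although both gates excluded c-Kit protein. Both genes were stable under scaling and were called with each library left out in turn. Cd200r3 (gene 74603, mm10 chromosome 16, 44943678 to 44981380), an activating receptor of basophils, stood at 821 and 845 TPM in BaP and 1602 and 1576 TPM in MAR1HI (log2 change 0.93 ± 0.24 SE, adjusted p = 0.00329). Its duplicates lay close together, but the call was lost under 2 of the 3 other scalings and with any 1 library left out. Fcer1a (gene 14125, mm10 chromosome 1, 173221271 to 173227229), the IgE-binding chain that MAR1 recognises, stood at 776 and 892 TPM in BaP and 1211 and 1446 TPM in MAR1HI and was not called (log2 change 0.67 ± 0.24 SE, adjusted p = 0.0589).

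Basophil identity genes were high in both populations. Mcpt8, the basophil protease of the mast cell protease family, stood at 4978 and 6412 TPM in BaP and 6416 and 4839 TPM in MAR1HI, and the values of the groups overlapped. Prss34, a further basophil serine protease, overlapped as well, at 6085 and 8679 TPM in BaP and 8133 and 5371 TPM in MAR1HI. Neither was called (log2 changes -0.02 and -0.14), nor was the granule carboxypeptidase Cpa3, at 3284 and 3835 TPM in BaP and 2760.0 and 3017 TPM in MAR1HI (log2 change -0.30 ± 0.23 SE). Gata2, a transcription factor that basophils need, stood at 269 and 348 TPM in BaP and 404 and 424 TPM in MAR1HI, and Il3ra, the receptor chain for interleukin-3, at 95.9 and 93.1 TPM in BaP and 152 and 143 TPM in MAR1HI. Both lay higher in both MAR1HI libraries without a call (adjusted p = 0.327 and 0.165). All 12 basophil markers were tested, of which 4 rose (33.3%, beside 6.38% of all tested genes) and 0 fell: Itga2 and Il4, both stable under scaling, and Cd200r3 and Hdc, which were not. In 9 of the 12 both MAR1HI libraries lay above both BaP libraries, against 38.4% of all tested genes. With BaP replicate 1, BaP replicate 2, MAR1HI replicate 1 and MAR1HI replicate 2 left out, 2, 2, 3 and 2 markers rose. Their summed level, most of it from Mcpt8, Prss34 and Cpa3, was 17570 and 22480 TPM in BaP and 22600 and 19060 TPM in MAR1HI and overlapped between the groups.

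Within the basophil granule list 2 of 13 tested members rose and 2 fell, and only the falls were stable under scaling. The falls were Ms4a3 and Prg2, the latter described below with the eosinophil genes. With the spread from all 6 libraries the reverse held, with 2 members called higher and 0 lower. Hdc, which makes histamine, stood at 351 and 407 TPM in BaP and 625 and 768 TPM in MAR1HI (log2 change 0.87 ± 0.26 SE). Hgf, a growth factor that basophils secrete, stood at 420.2 and 363 TPM in BaP and 711 and 817 TPM in MAR1HI (log2 change 0.96 ± 0.26 SE). Each rise was called without MAR1HI replicate 1 and lost without any of the other libraries. The proteoglycan core Srgn was nearly level, at 876 and 847 TPM in BaP and 811 and 828 TPM in MAR1HI. Ms4a3, a gene of granulocyte progenitors, was lower (497 and 482 TPM in BaP and 240.0 and 338 TPM in MAR1HI, log2 change -0.78). The other 2 subunits of the IgE receptor lay above BaP in both MAR1HI libraries without a call: Ms4a2, the beta chain, at 529 and 534 TPM in BaP and 657 and 683 TPM in MAR1HI, and Fcer1g, the gamma chain, at 710.5 and 644 TPM in BaP and 906 and 986 TPM in MAR1HI.

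**Figure D3:**
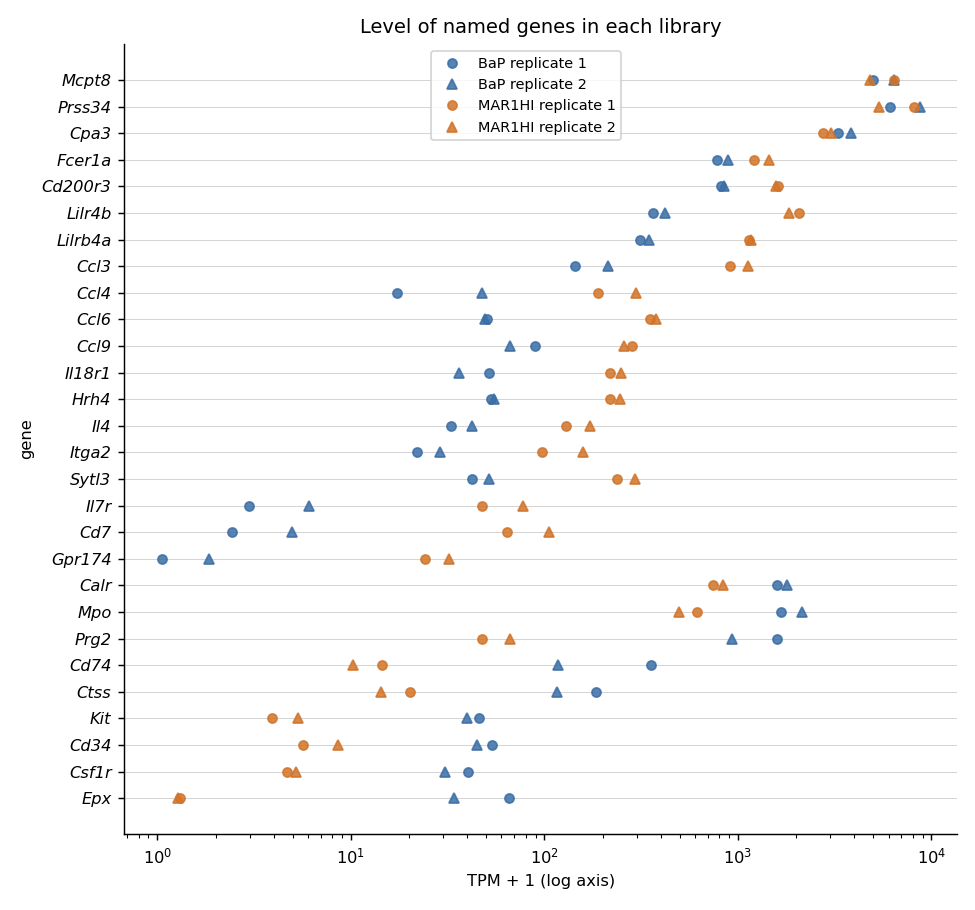
TPM + 1 on a log axis for a selection of named genes in each library, with BaP in blue, MAR1HI in orange, circles for replicate 1 and triangles for replicate 2. The proteases Mcpt8 and Prss34 overlap near the top of the range, the receptors and chemokines lie to the right in MAR1HI, and Cd34, Kit, Csf1r and Epx lie to the left.

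The largest rise in mean TPM among called genes, histone genes left out, belonged to Lilr4b (gene 14727, mm10 chromosome 10, 51480612 to 51486329), a member of the leukocyte immunoglobulin-like receptor family. It stood at 364 and 417 TPM in BaP and 2077 and 1824 TPM in MAR1HI, 4.997 times the BaP mean (log2 change 2.32 ± 0.25 SE, adjusted p = 2.56e-18). Its close copy Lilrb4a, which encodes an inhibitory receptor, stood at 312 and 347 TPM in BaP and 1146 and 1174 TPM in MAR1HI (log2 change 1.81 ± 0.25 SE). Reads may have been split between these similar genes, so their separate levels are uncertain, but neither overlapped between the groups. Ccl3 came next and is described below with the chemokines. Cyp4f18, a cytochrome that breaks down leukotriene B4, rose to 3.11 times its BaP level (208 and 243 TPM in BaP and 634 and 764 TPM in MAR1HI). Txnip, an inhibitor of thioredoxin, stood at 351 and 363 TPM in BaP and 874 and 852 TPM in MAR1HI. These genes were called with every library left out in turn, and all but Txnip were stable under scaling. Smaller differences at high levels were seen for the lectin Clec2d (941 and 784 TPM in BaP and 1469.7 and 1469 TPM in MAR1HI) and the membrane protein Fxyd5 (675 and 695 TPM in BaP and 1099 and 1165 TPM in MAR1HI). Both calls were lost with any 1 library left out, and neither held under all scalings.

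Receptors of growth factors and alarmins changed in 7 of 28 tested members, with 5 higher (4 stable under scaling) and 2 lower. Il18r1, the ligand-binding chain of the interleukin-18 receptor, stood at 50.7 and 35.2 TPM in BaP and 218 and 248 TPM in MAR1HI (log2 change 2.43 ± 0.30 SE). Its partner chain Il18rap stood at 148 and 141 TPM in BaP and 326 and 374 TPM in MAR1HI (log2 change 1.27 ± 0.27 SE). Csf2rb, the beta chain shared by the receptors for interleukin-3, interleukin-5 and GM-CSF, rose from 264 and 350.2 to 629 and 743 TPM in the 2 libraries of each group. Its relative Csf2rb2 rose from 99.01 and 120.5 to 267 and 285 TPM. These neighbours are similar in sequence, so reads could be split between them. Csf1r, the receptor of macrophage colony-stimulating factor, fell (39.4 and 29.6 TPM in BaP and 3.70 and 4.20 TPM in MAR1HI, log2 change -2.83 ± 0.41 SE), as did Il6st, the shared signal chain of the interleukin-6 family, at low levels and in TPM but not under all scalings (3.27 and 4.67 TPM in BaP and 1.20 and 0.738 TPM in MAR1HI). Il1rl1, the interleukin-33 receptor, was not called, at 145 and 134 TPM in BaP and 163 and 211 TPM in MAR1HI. Leaving out BaP replicate 1, BaP replicate 2, MAR1HI replicate 1 and MAR1HI replicate 2 gave 2, 4, 8 and 2 members higher.

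Il7r, the alpha chain of the interleukin-7 receptor and known mainly from lymphocytes, had the largest change of that list. It stood at 1.98 and 5.11 TPM in BaP and 46.8 and 76.2 TPM in MAR1HI (log2 change 3.83 ± 0.39 SE, adjusted p = 9.42e-20), so the groups were far apart in all libraries. Its promoter (250 bases before to 50 after the start of transcription, RefSeq, GRCm38.p6, chr15:9529827-9530126, minus strand) is shown because the gene was among those called in every setting that left out 1 library. Capitals mark, in order, a match to the C/EBP motif TTNNGCAA on the opposite strand and to the STAT motif TTCNNNGAA.
Il7r: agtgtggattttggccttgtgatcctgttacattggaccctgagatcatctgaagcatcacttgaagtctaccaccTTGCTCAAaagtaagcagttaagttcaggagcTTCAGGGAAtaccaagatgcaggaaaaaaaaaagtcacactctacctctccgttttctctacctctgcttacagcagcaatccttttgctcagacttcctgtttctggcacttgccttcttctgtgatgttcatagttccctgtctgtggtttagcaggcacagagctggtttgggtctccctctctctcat

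Il7r was also part of a list of lymphoid-associated genes, in which 6 of 11 tested members rose, 0 fell and all 6 rises were stable under scaling. The list was chosen with earlier results of these data known, so this count is no independent support for a lymphoid pattern. Cd7, a surface protein of T and NK cells, stood at 1.44 and 3.94 TPM in BaP and 63.2 and 105 TPM in MAR1HI (log2 change 4.57 ± 0.39 SE). Skap1, an adaptor of T cell adhesion signals, stood at 9.85 and 4.29 TPM in BaP and 76.5 and 64.5 TPM in MAR1HI. Ltb, a membrane-bound cytokine of the tumour necrosis factor family, rose from 7.32 and 10.7 to 36.6 and 41.8 TPM, and Cd69, an early activation marker, from 20.6 and 29.3 to 55.9 and 81.2 TPM. With 1 library left out, 4, 5, 6 and 4 members were called higher, in the order given above. The median change of the tested members was 1.42 (1.16 with median-of-ratios factors). Defining markers of T cells stayed near 0: Cd3d was listed at 1.77 and 4.03 TPM in BaP and 0 and 2.54 TPM in MAR1HI, and Cd3g at 0 in all 4 libraries. Summed over 13 matched T and NK cell markers, the level was 379 and 390 TPM in BaP and 200.2 and 201 TPM in MAR1HI, most of it Nkg7, a granule protein of cytotoxic cells (371 and 380.1 TPM in BaP and 194 and 194 TPM in MAR1HI).

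All 3 tested members of the CD200 receptor family rose, 1 of them stably under scaling. Cd200r4 stood at 40.6 and 45.2 TPM in BaP and 125 and 141 TPM in MAR1HI (log2 change 1.61 ± 0.31 SE) and Cd200r1, the inhibitory receptor of CD200, at 227 and 187 TPM in BaP and 429 and 464 TPM in MAR1HI (log2 change 1.11 ± 0.27 SE). CD200R3 was part of the MAR1HI gate, and the members are similar in sequence. Counts without 1 library in turn were 0, 1, 2 and 1. Among 5 receptors for IgG, 2 of low level fell and none was called higher, both falls being stable under scaling. Fcgr4, an activating receptor, stood at 28.2 and 18.8 TPM in BaP and 2.58 and 5.17 TPM in MAR1HI (log2 change -2.36 ± 0.42 SE), and Fcgr1, the high-affinity receptor for IgG, at 4.32 and 2.44 TPM in BaP and 0.0992 and 0.355 TPM in MAR1HI. With each library left out in the same order, 0, 2, 1 and 1 of them fell. The more abundant Fcgr3 (401 and 450 TPM in BaP and 474 and 635 TPM in MAR1HI, limma adjusted p = 0.405) was not called. Nor was the inhibitory Fcgr2b (149.5 and 132 TPM in BaP and 164 and 215 TPM in MAR1HI, limma adjusted p = 0.392). Both lay above BaP in both MAR1HI libraries, and the summed level of the 5 was 586.4 and 605.6 TPM in BaP and 642.1 and 856.5 TPM in MAR1HI.

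Among 37 tested inhibitory and paired surface receptors, 9 rose and 5 fell, of which 6 and 3 were stable under scaling. Besides the Lilrb4 genes, Cd244a, a receptor of the signalling lymphocytic activation family, stood at 67.2 and 60.8 TPM in BaP and 134 and 160.2 TPM in MAR1HI, and Havcr2, which encodes TIM-3, at 3.09 and 3.51 TPM in BaP and 11.3 and 13.4 TPM in MAR1HI. Sirpb1a, an activating signal-regulatory protein, had the largest fall, at 22.8 and 16.1 TPM in BaP and 1.71 and 0.223 TPM in MAR1HI (log2 change -3.47 ± 0.44 SE). The lectin Clec4a2 stood at 41.3 and 43.5 TPM in BaP and 12.98 and 11.02 TPM in MAR1HI and the receptor Treml4 at 6.23 and 4.08 TPM in BaP and 0 and 0.639 TPM in MAR1HI. The adaptor Tyrobp, through which many of these receptors signal, was not called, at 1448 and 1383 TPM in BaP and 2366 and 1882 TPM in MAR1HI. Leaving out each library in that order, 3, 2, 8 and 2 members were higher and 4, 3, 2 and 2 lower.

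**Figure D4:**
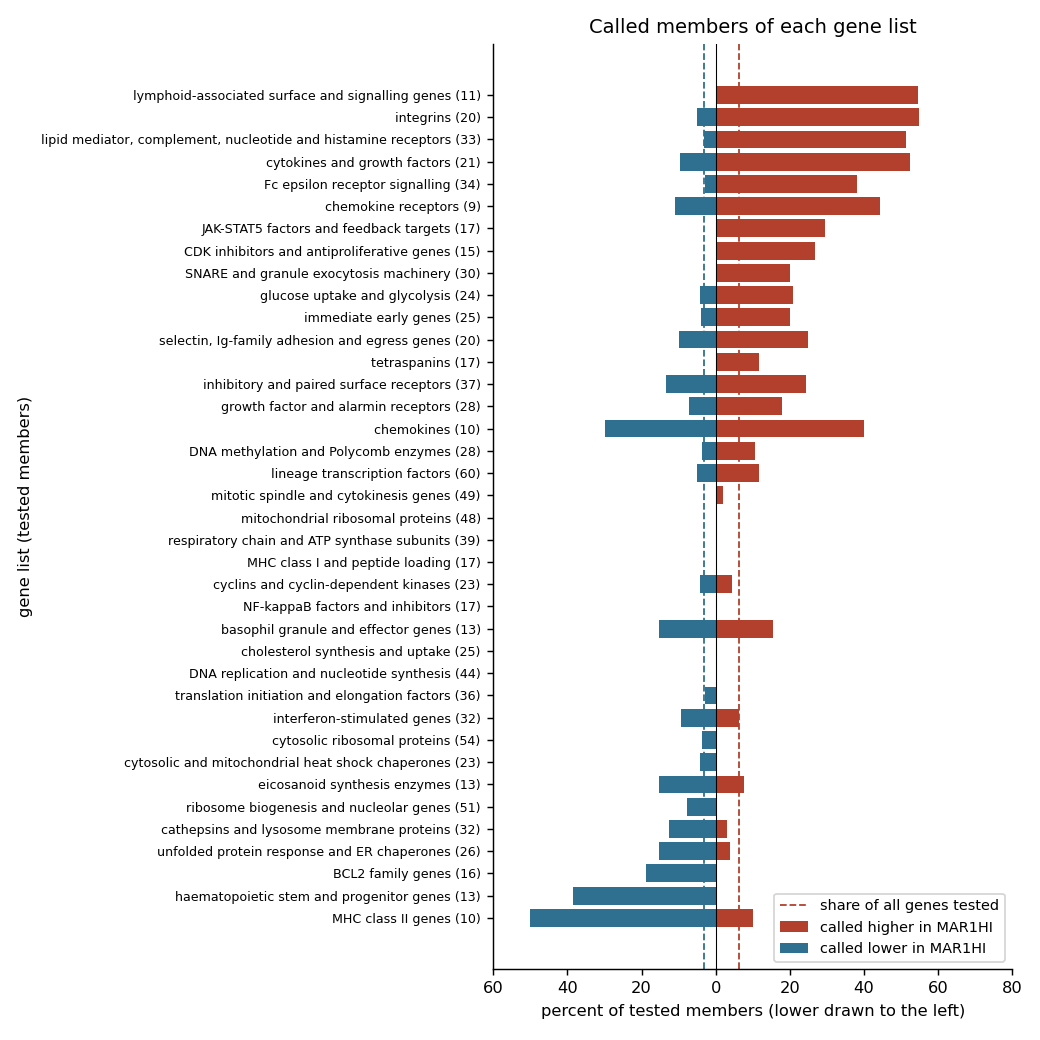
Share of tested members called higher (red, to the right) or lower (blue, to the left) in MAR1HI, in percent, for 38 gene lists with 9 or more tested members, whose numbers are given in brackets. Broken lines mark the shares among all tested genes, 6.38% higher and 3.08% lower. Lymphoid-associated genes, integrins and mediator receptors stand at the top, and MHC class II and progenitor genes at the bottom. The lists were chosen with earlier results of these data known.

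Chemokine receptors rose in 4 of 9 tested members and fell in 1, all 5 stable under scaling. Ccr3, the eotaxin receptor of eosinophils and basophils, stood at 5.61 and 5.30 TPM in BaP and 28.2 and 39.3 TPM in MAR1HI (log2 change 2.41 ± 0.40 SE). Ccr2, which binds monocyte chemoattractants, stood at 85.2 and 56.2 TPM in BaP and 230.5 and 274 TPM in MAR1HI (log2 change 1.84 ± 0.29 SE), and both were called with every library left out in turn. Cxcr2, a receptor for neutrophil-attracting chemokines, stood at 38.8 and 56.2 TPM in BaP and 133 and 198 TPM in MAR1HI, and Ccr1, a receptor for Ccl3 and related chemokines, at 116 and 137 TPM in BaP and 240.1 and 312 TPM in MAR1HI. Cx3cr1, the fractalkine receptor of monocytes, fell from 5.58 and 4.79 to 0.277 and 0.607 TPM. With 1 library left out, 2, 3, 4 and 2 members were higher.

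Receptors for lipid mediators, complement, nucleotides and histamine held the most rises: 17 of 33 tested members rose and 1 fell, 11 and 1 of them stable under scaling. The median change was 1.04, or 0.82 with median-of-ratios factors, where the median of all genes was near 0. Hrh4, the histamine receptor of granulocytes, stood at 51.9 and 53.9 TPM in BaP and 218 and 244 TPM in MAR1HI (log2 change 2.11 ± 0.30 SE). C3ar1, the receptor of the complement fragment C3a, stood at 6.23 and 8.14 TPM in BaP and 42.9 and 93.3 TPM in MAR1HI (log2 change 2.98 ± 0.37 SE). In both genes all MAR1HI values lay above all BaP values. Gpr174, a receptor for lysophosphatidylserine, was below 1 TPM in both BaP libraries and stood at 23.2 and 31.3 TPM in MAR1HI. Adora2b, an adenosine receptor, stood at 7.24 and 12.8 TPM in BaP and 57.3 and 81.9 TPM in MAR1HI, P2ry10, a lysophospholipid receptor, at 43.9 and 23.5 TPM in BaP and 118 and 146 TPM in MAR1HI, and the prostaglandin E2 receptor Ptger4 at 3.83 and 5.45 TPM in BaP and 15.6 and 28.2 TPM in MAR1HI. The fall was Adgre1, which encodes the macrophage protein F4/80 (41.6 and 24.8 TPM in BaP and 6.51 and 7.38 TPM in MAR1HI). Of the genes named, Hrh4, C3ar1, Gpr174 and Adora2b were called with every library left out in turn, and the list's count was 6, 6, 14 and 4.

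Of 10 tested chemokine genes, 4 rose and were stable under scaling, and 3 fell in TPM, none of them under all scalings. Ccl3 (gene 20302, mm10 chromosome 11, 83647843 to 83649378), which encodes MIP-1 alpha, stood at 144 and 212 TPM in BaP and 906 and 1123 TPM in MAR1HI, 5.71 times the BaP mean (log2 change 2.52 ± 0.26 SE, adjusted p = 1.32e-19). Ccl4, its neighbour, stood at 16.4 and 46.8 TPM in BaP and 189 and 295 TPM in MAR1HI (log2 change 3.04 ± 0.31 SE). The values of the groups were far apart, although BaP replicate 1 lay well below BaP replicate 2 for Ccl4. Ccl6 (gene 20305, mm10 chromosome 11, 83587886 to 83593087) stood at 49.4 and 48.4 TPM in BaP and 350.4 and 376 TPM in MAR1HI (log2 change 2.87 ± 0.29 SE), with close duplicates. Ccl9 stood at 88.7 and 65.3 TPM in BaP and 282 and 256 TPM in MAR1HI (log2 change 1.81 ± 0.29 SE). Ccl3, Ccl6 and Ccl9 were called with every library left out, and the call of Ccl4 was lost without MAR1HI replicate 2 (log2 change 2.72, limma adjusted p = 0.0632). The members that fell, Ccl5, Pf4 and Cxcl10, were at most 13.3 TPM in any library.

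The 4 genes that rose lie in the CC chemokine cluster of chromosome 11. For Ccl9 the promoter (RefSeq, GRCm38.p6, chr11:83578587-83578886, minus strand, the same window as above) is shown as that of a cluster gene called in every setting that left out 1 library. Capitals mark a match to the AP-1 motif TGANTCA.
Ccl9: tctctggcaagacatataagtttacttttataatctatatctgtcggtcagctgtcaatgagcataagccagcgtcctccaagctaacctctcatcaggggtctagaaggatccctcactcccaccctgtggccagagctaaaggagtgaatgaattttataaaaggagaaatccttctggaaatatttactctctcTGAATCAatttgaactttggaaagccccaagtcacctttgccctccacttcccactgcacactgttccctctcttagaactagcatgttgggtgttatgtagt

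Cytokine and growth factor genes rose in 11 of 21 tested members and fell in 2, with 6 and 1 stable under scaling. Il4 (gene 16189, mm10 chromosome 11, 53612461 to 53618665), the type 2 cytokine of basophils, stood at 31.99 and 41.2 TPM in BaP and 128 and 172 TPM in MAR1HI (log2 change 2.004 ± 0.31 SE, adjusted p = 1.57e-08). Both MAR1HI libraries lay far above both BaP libraries. Lgals3, which encodes galectin-3, stood at 78.03 and 77.2 TPM in BaP and 227 and 264 TPM in MAR1HI. Osm, a cytokine of the interleukin-6 family, rose from 12.4 and 19.8 to 41.4 and 71.2 TPM, and Il15, a survival factor of NK cells, from 43.6 and 41.3 to 78.9 and 142 TPM. Mif, the macrophage migration inhibitory factor, fell (239 and 167 TPM in BaP and 91.5 and 112 TPM in MAR1HI, log2 change -0.97 ± 0.29 SE). Il13, Il3, Il5, Il9, Il10 and Csf2 did not reach the filter. Il4 and Lgals3 were called with every library left out in turn, and the count of higher members without 1 library was 2, 4, 10 and 2.

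Integrins rose in 11 of 20 tested members and fell in 1, with 6 and 1 stable under scaling (median change 0.91, or 0.65 with median-of-ratios factors). Itga2 (gene 16398, mm10 chromosome 13, 114835912 to 114932041), the chain recognised by the basophil marker antibody DX5, stood at 21.1 and 28.02 TPM in BaP and 95.8 and 158 TPM in MAR1HI (log2 change 2.30 ± 0.32 SE). Itgb7, a partner of several alpha chains, stood at 85.6 and 116 TPM in BaP and 242 and 328 TPM in MAR1HI, and Itgb3 at 3.55 and 7.69 TPM in BaP and 25.6 and 33.04 TPM in MAR1HI. Itga4 was the exception: this alpha chain, which binds VCAM-1, fell (81.9 and 74.5 TPM in BaP and 24.4 and 31.1 TPM in MAR1HI, log2 change -1.47 ± 0.33 SE). Itgal, an alpha chain of leukocyte integrins, was not called, at 155 and 143 TPM in BaP and 208 and 258 TPM in MAR1HI. Only Itga2 of these was called with every library left out in turn. Without BaP replicate 1, BaP replicate 2, MAR1HI replicate 1 and MAR1HI replicate 2, 2, 5, 10 and 1 integrins were higher.

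Other adhesion and egress genes moved in both directions, with 5 of 20 tested members higher and 2 lower (4 and 2 stable under scaling). L1cam, a cell adhesion molecule of the immunoglobulin family, stood at 4.45 and 5.99 TPM in BaP and 33.4 and 56.9 TPM in MAR1HI (log2 change 2.86 ± 0.39 SE) and was called with every library left out. S1pr1, the sphingosine phosphate receptor that guides cells into blood, stood at 10.7 and 14.9 TPM in BaP and 25.9 and 46.7 TPM in MAR1HI, and Selplg, the ligand of P-selectin, at 89.8 and 105 TPM in BaP and 186 and 254 TPM in MAR1HI. Vcam1 (10.5 and 9.31 TPM in BaP and 3.69 and 3.04 TPM in MAR1HI) and Cd24a (47.5 and 59.6 TPM in BaP and 25.9 and 19.5 TPM in MAR1HI) fell. With 1 library left out, 1, 1, 5 and 1 members rose. Among 17 tetraspanins, membrane organisers, 2 rose (11.8%, beside 6.38% of all tested genes): Cd82 at 42.3 and 34.04 TPM in BaP and 73.8 and 113 TPM in MAR1HI and Cd9 at 249.8 and 301 TPM in BaP and 509 and 755 TPM in MAR1HI. Only Cd82 was stable under scaling, 4 tetraspanins were called lower with median-of-ratios factors, and 0, 1, 3 and 0 rose with each library left out.

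Signalling genes behind the IgE receptor rose in 13 of 34 tested members and fell in 1, with 6 and 1 stable under scaling. In 25 of the 34 both MAR1HI libraries lay above both BaP libraries, against 38.4% of all tested genes. Besides Skap1, described above, the kinase Btk stood at 66.4 and 72.3 TPM in BaP and 129 and 216 TPM in MAR1HI, the protein kinase C isoform Prkcd at 83.9 and 111 TPM in BaP and 184 and 279.6 TPM in MAR1HI, and the inhibitory adaptor Dok2 at 19.8 and 19.5 TPM in BaP and 48.1 and 49.6 TPM in MAR1HI. Btk and Dok2 were stable under scaling and Prkcd was not. Vav3, a guanine nucleotide exchange factor, fell at low levels (10.4 and 11.2 TPM in BaP and 3.63 and 2.63 TPM in MAR1HI). Counts of higher members without 1 library in turn were 2, 2, 13 and 2.

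Machinery of granule release rose in 6 of 30 tested members, 4 of them stable under scaling, and fell in 0. Sytl3 and Sytl2, synaptotagmin-like proteins that tether granules to Rab27, changed most among those called: Sytl3 stood at 41.2 and 50.7 TPM in BaP and 236 and 293 TPM in MAR1HI (log2 change 2.50 ± 0.30 SE) and Sytl2 at 8.30 and 5.04 TPM in BaP and 34.4 and 36.3 TPM in MAR1HI (log2 change 2.28 ± 0.39 SE). Lyst, which controls the size of granules, stood at 91.00 and 109 TPM in BaP and 259 and 328 TPM in MAR1HI, and the syntaxin Stx3 at 86.2 and 91.8 TPM in BaP and 150.1 and 236 TPM in MAR1HI, the latter not stable under scaling. In the same leave-out order, 2, 2, 7 and 3 members rose. In eicosanoid synthesis 1 of 13 rose and 2 fell. Alox15, a lipoxygenase, stood at 122 and 146 TPM in BaP and 369.8 and 513 TPM in MAR1HI (log2 change 1.70 ± 0.27 SE). Tbxas1, the thromboxane synthase, stood at 70.2 and 71.6 TPM in BaP and 17.1 and 21.3 TPM in MAR1HI (log2 change -1.84 ± 0.34 SE). Both were stable under scaling, Alox15 also with every library left out, whereas Alox5, the leukotriene-forming lipoxygenase, was not called (327 and 404 TPM in BaP and 443 and 596 TPM in MAR1HI).

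Of 60 lineage transcription factors 7 rose and 3 fell, shares of 11.7% and 5.0% beside 6.38% and 3.08% of all genes. Nfil3, a basic leucine zipper factor needed for several lymphoid and myeloid types, stood at 17.7 and 18.3 TPM in BaP and 66.7 and 111 TPM in MAR1HI (log2 change 2.20 ± 0.34 SE) and was called with every library left out. Mxd1, an antagonist of Myc, stood at 7.11 and 8.88 TPM in BaP and 22.7 and 36.3 TPM in MAR1HI, Foxo1 at 6.69 and 5.51 TPM in BaP and 17.00 and 23.5 TPM in MAR1HI and the inhibitor of basic helix-loop-helix factors Id1 at 38.2 and 36.4 TPM in BaP and 75.8 and 89.6 TPM in MAR1HI. Cebpe, a factor of neutrophil and eosinophil granule formation, fell from 6.27 and 11.3 to 1.57 and 2.35 TPM. Myb, a progenitor factor, fell from 159 and 146 to 57.1 and 89.9 TPM (log2 change -1.08 ± 0.30 SE). Cebpa, which directs myeloid fate, stood at 324 and 365 TPM in BaP and 417 and 458 TPM in MAR1HI and was not called. With the libraries left out in that order, 1, 1, 7 and 1 of the list rose and 1, 0, 1 and 1 fell.

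In the JAK-STAT5 list 5 of 17 tested members rose and 0 fell, 3 of them stable under scaling. Besides Osm and Id1, described above, the kinases Jak1 (93.1 and 113 TPM in BaP and 162 and 245 TPM in MAR1HI) and Jak2 (232 and 231 TPM in BaP and 381 and 485 TPM in MAR1HI), which start the signal, rose in TPM but not under all scalings. Counts without 1 library were 0, 1, 5 and 0. Of 25 immediate early genes 5 rose and 1 fell, and only Rgs2, a regulator of G protein signals, was stable under scaling (33.5 and 42.5 TPM in BaP and 77.7 and 127 TPM in MAR1HI). Leaving out single libraries in that order gave 0, 1, 5 and 0 immediate early genes higher and 0 lower each time. Zfp36, an RNA-binding protein that shortens the life of cytokine transcripts, stood at 12.3 and 29.7 TPM in BaP and 55.4 and 88.7 TPM in MAR1HI. Of 17 NF-kappaB factors and inhibitors 0 were called in TPM with limma (5 higher and 0 lower at an unadjusted p under 0.05), 12 lay above BaP in both MAR1HI libraries (against 38.4% of all tested genes), and 0, 0, 4 and 0 were called with each library left out in that order. Nfkbia, the inhibitor that NF-kappaB induces, stood at 45.1 and 58.2 TPM in BaP and 81.3 and 111 TPM in MAR1HI (adjusted p = 0.0526).

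Progenitor genes fell in 5 of 13 tested members and rose in 0, each fall stable under scaling, and in 10 of the 13 both MAR1HI libraries lay below both BaP libraries, against 15.3% of all tested genes. Besides Cd34, Kit and Myb, these were Muc13, a membrane mucin (88.7 and 98.3 TPM in BaP and 33.2 and 36.9 TPM in MAR1HI), and Sox4, a transcription factor of immature cells (4.21 and 4.31 TPM in BaP and 1.03 and 0.887 TPM in MAR1HI). The median change was -1.08, and CD34 was part of the gates. With 1 library left out 2, 2, 3 and 4 members were lower, with Kit and Cd34 called each time. The mast cell markers that could be tested were 4 of 12, of which Kit and Slc45a3 (12.3 and 11.9 TPM in BaP and 0.737 and 0.956 TPM in MAR1HI) fell. The mast cell proteases Mcpt1 and Tpsab1 were listed at 0 in all 4 libraries.

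Genes of DNA replication (0 of 44 called with limma, 0 higher and 1 lower at an unadjusted p under 0.05) and of the mitotic spindle (1 of 49 called, Cenpf) showed few calls. In 20 of the 44 replication genes both MAR1HI libraries lay below both BaP libraries, against 15.3% of all tested genes, and 4 were called lower with median-of-ratios factors. In 32 of the 49 spindle genes both MAR1HI libraries lay above both BaP libraries, against 38.4% of all tested genes, and 0 were called with median-of-ratios factors. Mki67, a protein of dividing cells, stood at 438 and 490.4 TPM in BaP and 598 and 748 TPM in MAR1HI (log2 change 0.53 ± 0.25 SE, adjusted p = 0.191). Cenpf, a kinetochore protein, was called in TPM only (31.3 and 30.1 TPM in BaP and 47.8 and 76.5 TPM in MAR1HI, log2 change 0.96 ± 0.33 SE). Cdk6, a kinase of the G1 phase, fell (38.1 and 39.7 TPM in BaP and 13.7 and 16.7 TPM in MAR1HI, log2 change -1.31 ± 0.37 SE), and E2f2 rose (12.2 and 11.1 TPM in BaP and 24.3 and 30.2 TPM in MAR1HI). Of 15 inhibitors of the cell cycle 4 rose in TPM, namely Btg2, Btg1, Cdkn2d and Rbl2, and 0 did so under all scalings. Btg2 stood at 5.97 and 7.73 TPM in BaP and 13.5 and 21.1 TPM in MAR1HI and Cdkn2d at 36.3 and 47.8 TPM in BaP and 71.8 and 95.8 TPM in MAR1HI. As each library was left out in that order, 0, 0, 6 and 0 inhibitors rose.

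Genes of ribosome production lay lower in MAR1HI as a group but seldom passed the test. Of 51 ribosome biogenesis genes 4 fell and 0 rose, and 31 lay below BaP in both MAR1HI libraries, against 15.3% of all tested genes. The median change was -0.41 in TPM and -0.67 with median-of-ratios factors, a scaling under which 17 were called lower, against 4.19% of all tested genes (3.49% were called higher). Fbl, the fibrillarin that methylates ribosomal RNA, stood at 201 and 115 TPM in BaP and 72.7 and 74.3 TPM in MAR1HI, and Mybbp1a, a nucleolar protein, at 82.4 and 68.2 TPM in BaP and 31.1 and 34.03 TPM in MAR1HI. Npm1, the nucleophosmin of the nucleolus, was not called (487 and 328 TPM in BaP and 238 and 379.6 TPM in MAR1HI). Cytosolic ribosomal proteins lay below BaP in both MAR1HI libraries in 45 of 54 tested members, against 15.3% of all tested genes. Their median change was -0.39 in TPM, -0.207 with quantile-normalized values and -0.654 with median-of-ratios factors, a scaling under which 0 were called. Of these 54 only Rps2 (3556 and 3409 TPM in BaP and 1949.6 and 1916 TPM in MAR1HI) and Rpl12 (5665 and 4984 TPM in BaP and 3454 and 3172 TPM in MAR1HI) were called, not under all scalings. Outside this list Rps12 (7776 and 7045 TPM in BaP and 4759.9 and 4171 TPM in MAR1HI) was called lower. It had the largest fall in mean TPM among called genes, histone and small RNA genes left out. Rpl36a (3518 and 2642.5 TPM in BaP and 2092 and 1748 TPM in MAR1HI) was called lower too. Neither of the last 2 calls held under any other scaling. Dropping the libraries in that order, 0, 0, 1 and 0 biogenesis genes were called lower.

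Chaperones of the endoplasmic reticulum fell in 4 of 26 tested members, all stable under scaling, and rose in 1. Calr (gene 12317, mm10 chromosome 8, 84842088 to 84846931), the calreticulin that binds calcium and folds glycoproteins, stood at 1587 and 1786 TPM in BaP and 744 and 834 TPM in MAR1HI (log2 change -1.09 ± 0.24 SE, adjusted p = 0.000277). Pdia6, a disulfide isomerase, stood at 408 and 351 TPM in BaP and 189 and 187 TPM in MAR1HI, and Hyou1, a chaperone of the Hsp70 family, at 197 and 199.9 TPM in BaP and 93.2 and 85.5 TPM in MAR1HI. Hspa5, the main chaperone BiP, lay lower in both MAR1HI libraries without a call (605 and 939.6 TPM in BaP and 427 and 496 TPM in MAR1HI, adjusted p = 0.0522). Ero1a, an oxidase of disulfide formation, was the member that rose (33.2 and 39.5 TPM in BaP and 61.4 and 112 TPM in MAR1HI). With each library left out in the same order, 1, 0, 3 and 0 members fell.

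Glucose uptake and glycolysis genes rose in 5 of 24 tested members and fell in 1, 3 rises being stable under scaling. Slc2a3, a glucose transporter, stood at 18.3 and 26.6 TPM in BaP and 59.6 and 96.02 TPM in MAR1HI, and the phosphofructokinase Pfkp at 59.4 and 80.2 TPM in BaP and 145 and 212 TPM in MAR1HI. Gapdh, an abundant enzyme of the pathway, was not called (3960.1 and 4301 TPM in BaP and 3416 and 3047 TPM in MAR1HI). Leaving out each library in that order, 0, 2, 5 and 0 members rose. With limma, 0 of 39 respiratory chain, 0 of 48 mitochondrial ribosomal and 0 of 25 cholesterol synthesis genes were called, with median changes of 0.14, -0.12 and -0.09. At an unadjusted p under 0.05 there were 1 higher and 1 lower, 2 higher and 3 lower and 1 higher and 7 lower, and with median-of-ratios factors 0, 4 and 3 were called lower.

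Eosinophil granule genes were among those with the largest falls. Prg2 (gene 19074, mm10 chromosome 2, 84980461 to 84983632), the major basic protein, stood at 1584 and 934 TPM in BaP and 46.7 and 65.7 TPM in MAR1HI, and its MAR1HI mean was 0.0446 of the BaP mean (log2 change -4.43 ± 0.27 SE). With the spread from all 6 libraries its adjusted p was 0.0646, above the threshold of 0.05. Epx (gene 13861, mm10 chromosome 11, 87863998 to 87875536), the eosinophil peroxidase, stood at 64.9 and 33.3 TPM in BaP and 0.314 and 0.277 TPM in MAR1HI (log2 change -5.20 ± 0.43 SE). Prg3, a relative of Prg2, stood at 96.2 and 33.3 TPM in BaP and 0 and 1.63 TPM in MAR1HI. Of 9 tested eosinophil markers 6 fell and 2 rose, all stable under scaling, and the 2 that rose were Ccr3 and Alox15. Siglecf, a lectin of eosinophils, was not called (21.9 and 20.9 TPM in BaP and 29.5 and 44.5 TPM in MAR1HI), and Il5ra did not reach the filter. BaP replicate 1 lay above BaP replicate 2 for each of the 6 genes that fell, and without it 6 of them were called lower. Summed eosinophil markers stood at 2288 and 1297 TPM in BaP and 479 and 671 TPM in MAR1HI. Most of the MAR1HI sum was Alox15, which rose (369.8 and 513 TPM in MAR1HI), and not the granule genes. The part of eosinophil precursors in these falls was not tested.

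The eosinophil-associated ribonuclease genes are recent copies of each other, so their separate levels are uncertain. Ear1 stood at 259.5 and 86.7 TPM in BaP and 0 and 1.19 TPM in MAR1HI, Ear2 at 93.03 and 28.2 TPM in BaP and 4.43 and 5.39 TPM in MAR1HI (adjusted p = 0.237 with the spread from all 6 libraries), while Ear6 was at 0 in both tables of MAR1HI and at 40.7 and 9.52 TPM in those of BaP. Their promoters are shown because they make the near-identity visible: over 297 aligned bases of the windows of Ear1 (chr14:43819590-43819889, minus strand) and Ear2 (chr14:44102404-44102703, plus strand), 294 (99.0%) were identical (RefSeq, GRCm38.p6). Capitals mark a match to the C/EBP motif TTNNGCAA on the opposite strand, present in both.
Ear1: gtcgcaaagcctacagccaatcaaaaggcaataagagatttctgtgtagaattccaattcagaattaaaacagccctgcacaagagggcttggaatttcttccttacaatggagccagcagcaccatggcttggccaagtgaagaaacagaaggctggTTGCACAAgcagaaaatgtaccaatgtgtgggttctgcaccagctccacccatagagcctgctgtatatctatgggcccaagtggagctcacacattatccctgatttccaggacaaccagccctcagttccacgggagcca
Ear2: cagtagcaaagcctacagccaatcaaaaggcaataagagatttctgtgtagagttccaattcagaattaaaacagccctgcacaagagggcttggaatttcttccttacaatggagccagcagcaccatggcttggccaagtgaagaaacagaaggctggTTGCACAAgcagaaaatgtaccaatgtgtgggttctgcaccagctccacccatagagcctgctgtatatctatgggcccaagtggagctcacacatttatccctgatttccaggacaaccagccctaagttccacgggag

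Genes of MHC class II presentation fell in 5 of 10 tested members, 4 of them stable under scaling. Cd74 (gene 16149, mm10 chromosome 18, 60803849 to 60812652), the invariant chain that escorts class II molecules, stood at 353 and 117 TPM in BaP and 13.4 and 9.26 TPM in MAR1HI (log2 change -4.07 ± 0.33 SE). H2-Aa stood at 172 and 63.98 TPM in BaP and 5.52 and 5.68 TPM in MAR1HI, H2-Eb1 at 199 and 51.95 TPM in BaP and 6.03 and 2.34 TPM in MAR1HI and H2-Ab1 at 236 and 97.2 TPM in BaP and 27.3 and 19.3 TPM in MAR1HI. BaP replicate 1 lay highest for each of these 4, and MAR1HI lay below both BaP libraries. In the usual leave-out order 4, 5, 4 and 3 class II genes fell. H2-Oa, a modulator of peptide loading, rose in TPM only (115 and 129 TPM in BaP and 213 and 216 TPM in MAR1HI). Ciita, the master regulator of the class II genes, was low throughout (3.15 and 1.73 TPM in BaP and 0.0245 and 0.0403 TPM in MAR1HI). Of 17 MHC class I genes 0 were called with limma (4 higher and 0 lower at an unadjusted p under 0.05). Dendritic cell markers, which share these genes, fell in 6 of 11 tested members, 4 of them stable under scaling, and rose in 0. They summed to 1038 and 403 TPM in BaP and 103 and 94.5 TPM in MAR1HI. Batf3, a further member of that list, was at 0 in all 4 libraries. The part of such cells in the class II result was not tested.

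Monocyte and macrophage markers fell in 14 of 19 tested members and rose in 1, of which 8 and 1 were stable under scaling. Besides Csf1r, Adgre1 and Cx3cr1, the macrophage factor Spic stood at 7.34 and 6.55 TPM in BaP and 0.102 and 0.328 TPM in MAR1HI, the complement subunit C1qb at 35.1 and 12.5 TPM in BaP and 3.40 and 1.73 TPM in MAR1HI and the lysozyme Lyz2 at 330.2 and 715 TPM in BaP and 137 and 193 TPM in MAR1HI. Summed, these markers stood at 1050 and 1413 TPM in BaP and 732 and 863 TPM in MAR1HI, with Ccr2 as the member that rose. In the same leave-out order, 5, 8, 7 and 3 members fell. Lysosomal proteases and membrane proteins fell in 4 of 32 tested members, all stable under scaling, and rose in 1. Leave-out counts of lysosomal genes that fell were 1, 2, 3 and 2. Ctss, a cathepsin of antigen-presenting cells, stood at 183 and 116 TPM in BaP and 19.3 and 13.3 TPM in MAR1HI (log2 change -3.10 ± 0.33 SE), with an adjusted p of 0.111 when the spread came from all 6 libraries. Cd68, a macrophage lysosome protein, stood at 27.8 and 26.2 TPM in BaP and 8.57 and 7.82 TPM in MAR1HI (limma adjusted p = 0.114 with the spread of all 6 libraries). Ctsd, a cathepsin found in most cells, was the member that rose (282 and 316 TPM in BaP and 450.1 and 626 TPM in MAR1HI). The part of monocytes and macrophages in these results was not tested.

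A trio of close copies of an anti-apoptotic gene of the BCL2 family fell, and no other of the 16 tested family members was called. Bcl2a1b stood at 52.1 and 35.7 TPM in BaP and 5.04 and 1.55 TPM in MAR1HI, Bcl2a1d at 26.4 and 13.7 TPM in BaP and 0 and 0.448 TPM in MAR1HI and Bcl2a1a at 31.1 and 8.20 TPM in BaP and 0 and 0.250 TPM in MAR1HI. They share most of their sequence, so they are counted here as 1 signal with uncertain split. Mcl1, a survival gene of many blood cells, was not called (36.2 and 38.2 TPM in BaP and 43.98 and 58.7 TPM in MAR1HI). Of 32 interferon-stimulated genes 2 were called higher (6.25%, near the 6.38% of all tested genes) and 3 lower, 0 and 2 of them under all scalings. Dropping 1 library in the usual order, 0, 0, 3 and 0 were higher and 0, 0, 1 and 0 lower. Ifit3 stood at 11.98 and 8.96 TPM in BaP and 3.13 and 3.72 TPM in MAR1HI and Ifi27l2a at 28.7 and 26.5 TPM in BaP and 10.9 and 7.02 TPM in MAR1HI, both stable under scaling.

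**Figure D5:**
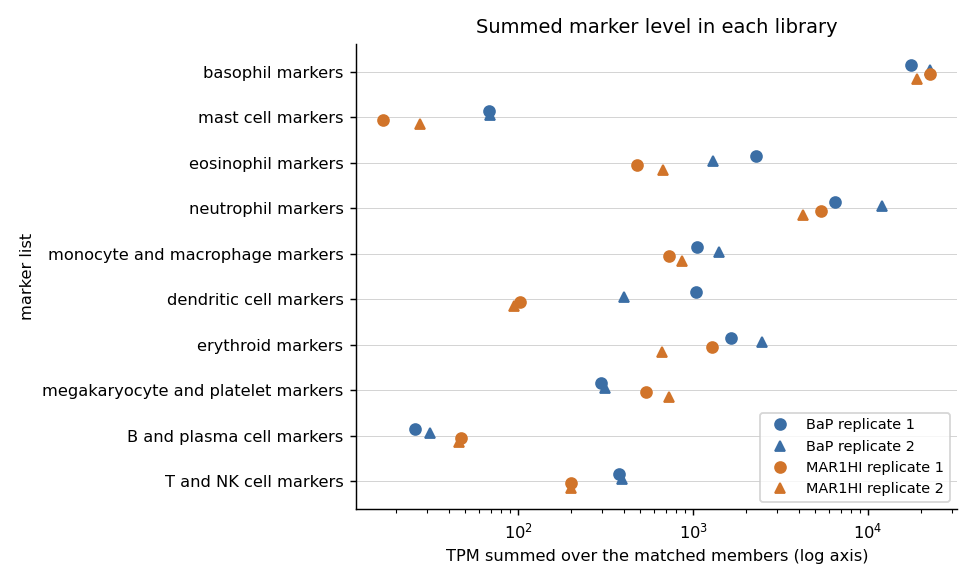
TPM summed over the matched members of each marker list, on a log axis, in each library, with BaP in blue, MAR1HI in orange, circles for replicate 1 and triangles for replicate 2. Basophil markers overlap between the groups at about the highest level, and dendritic cell, eosinophil and mast cell markers lie lower in both MAR1HI libraries.

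Neutrophil markers were high in all libraries, at 6471 and 11930 TPM summed in BaP and 5382 and 4269 TPM in MAR1HI, and 7 of 18 fell, 3 of them stable under scaling, while 1, Cxcr2, rose. Mpo (gene 17523, mm10 chromosome 11, 87793784 to 87804412), the myeloperoxidase of primary granules, stood at 1674 and 2138 TPM in BaP and 615 and 494 TPM in MAR1HI (log2 change -1.78 ± 0.24 SE), and the protease Prtn3 at 52.7 and 53.6 TPM in BaP and 12.4 and 9.57 TPM in MAR1HI (log2 change -2.19 ± 0.37 SE). Both were called with every library left out in turn. Ctsg, a further primary granule protease, was not called (1508 and 1475 TPM in BaP and 925 and 937 TPM in MAR1HI, adjusted p = 0.0525). The secondary granule genes Ltf (211 and 642 TPM in BaP and 185 and 147 TPM in MAR1HI) and Ngp (278 and 789 TPM in BaP and 285 and 206 TPM in MAR1HI) were far higher in BaP replicate 2 than in the other 3 libraries. S100a8 and Ngp overlapped between the groups although they were called in TPM. With the libraries left out in that order, 9, 2, 2 and 2 neutrophil markers fell. The part of neutrophil precursors in the falls of Mpo and Prtn3 was not tested.

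Erythroid markers fell in 3 of 13 tested members, 2 of them stable under scaling, and summed to 1643 and 2458 TPM in BaP and 1275 and 667 TPM in MAR1HI. Tfrc, the transferrin receptor, stood at 50.5 and 45.8 TPM in BaP and 17.3 and 23.6 TPM in MAR1HI. The beta-globin Hbb-bs was at 18.02 and 564 TPM in BaP and 8.84 and 9.87 TPM in MAR1HI, so that its call rested on BaP replicate 2, and it was called under none of the other 3 scalings. Hbb-b1, outside this list, shares its position and stood at 552 and 2.36 TPM in BaP and 499.5 and 235 TPM in MAR1HI. It was high in the BaP library where Hbb-bs was low, so the fall of Hbb-bs may stand for a different split of reads, which was not tested. With each library left out in the same order, 2, 1, 1 and 0 erythroid markers fell and 1, 1, 0 and 0 rose. Globin copies were split unevenly between duplicates: Hba-a1 was listed at 4.36 and 1661 TPM in BaP while Hba-a2 stood at 1467 and 4.48 TPM. Megakaryocyte and platelet markers summed to 297 and 313 TPM in BaP and 535 and 723 TPM in MAR1HI. Of 5 tested members 2 rose, Plek (39.6 and 45.7 TPM in BaP and 128 and 191 TPM in MAR1HI), a signalling protein of platelets and leukocytes, and Itga2b (238 and 261 TPM in BaP and 398 and 529 TPM in MAR1HI), and Pf4 fell, with Gp6 and Treml1 listed at 0 in all 4 libraries. B cell markers were low in all libraries (25.6 to 47.3 TPM summed), and 0 of 5 were called with limma (2 higher and 0 lower at an unadjusted p under 0.05).

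Strand-specific counting was not stated, and 202 of the 714 higher and 92 of the 345 lower genes share their position with another listed gene. Some genes named above overlap a further gene that is not a small RNA, so their levels are less certain. These are Cd34, Txnip, Ccl6, Cxcl10, Itga4, Cd82, Jak1, Rbl2, Pdia6, Pfkp, H2-Oa, Ifi27l2a, Ear2, Ear6, Hbb-bs and Hbb-b1. A microRNA or small nucleolar RNA gene lies within Mcpt8, Cpa3, Fxyd5, Csf2rb, Csf2rb2, Csf1r, Cd74, Ltb, Nfkbia, Rps2, Rps12 and Rpl12 or overlaps them. Several of the smallest adjusted p-values belong to features whose counting is uncertain. The small RNA Scarna13 was listed at 239.9 and 208 TPM in BaP and at 0 in MAR1HI, while Mir3069, which lies at the same place within Snhg10, stood at 0.216 and 0.215 TPM in BaP and 125 and 85.1 TPM in MAR1HI. Gm12191 overlaps Rpl30 (13.7 and 23.5 TPM in BaP and 532 and 753 TPM in MAR1HI), and Snord45c lies within Rabggtb (0.300 and 0.405 TPM in BaP and 47.1 and 173 TPM in MAR1HI). Histone genes have near-identical copies, and H4bc24 stood at 2741 and 3603 TPM in BaP and 70.5 and 0.461 TPM in MAR1HI. H3c15 stood at 4926 and 14.3 TPM in BaP and 5907 and 3592 TPM in MAR1HI and H2ac19 at 3186 and 0.263 TPM in BaP and 165 and 1358 TPM in MAR1HI, so that BaP replicate 2 alone set both calls, and the sign of each reversed without it. Hbb-b1 behaved in the same way (552 and 2.36 TPM in BaP and 499.5 and 235 TPM in MAR1HI). Defb40, a beta-defensin with no such overlap, reached 20.3 and 29.4 TPM in MAR1HI and was at 0 in both tables of BaP. The reverse held for Clec4b1, a lectin gene at 46.9 and 32.9 TPM in BaP and at 0 in both tables of MAR1HI.

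Promoter windows were found for 8772 of the 11188 tested genes, 217 of the 285 higher and 156 of the 208 lower genes that were stable under scaling. Motifs were searched by letters on both strands, and a match is not a bound site. The PU.1 letters GAGGAAGT were in 3.53% of the windows of tested genes, 7.83% of those of higher and 13.5% of those of lower genes. The letters of AP-1, given above with Ccl9, were in 4.7%, 10.6% and 10.9%. The letters AGATAA, a core motif of GATA factors, had shares of 6.67%, 9.22% and 8.33%. C/EBP letters, given above with Il7r, were in 8.4%, 11.5% and 9.62%, and STAT letters in 7.14%, 8.76% and 11.5%. For these 5 motifs the shares were higher in both sets than among the tested genes, and no test of the differences was made.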

How the data were processed

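The deposited tables hold 3 values per gene, per the file headers: coverage (a signal: average depth over the bases of a gene), FPKM and TPM. Per the submitters' processing notes the authors trimmed reads with Trimmomatic, aligned them with HISAT2 to mm10 and used StringTie; versions, options and annotation were not given in the sources used here. TRIzol LS and a capture-based library kit (SureSelect) were used, per the labels, so levels may depend on the capture of each transcript. The aligned bases behind each library were derived by dividing the authors' FPKM by the deposited coverage. Read counts were not used here, so precision was judged from duplicates, and p-values measure only the spread between these libraries.

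The authors' TPM was summed per gene ID and analysed as log2(TPM + 1), which understates changes of genes at low levels. Genes that reached a TPM of 1 in 2 or more of the 4 libraries entered limma 3.58.1 in R 4.3.3 (lmFit, eBayes with a trend, 2 residual and infinite prior degrees of freedom, two-sided). The Benjamini-Hochberg method adjusted over 11188 genes, with calls made at adjusted p-values under 0.05. SE is limma's moderated standard error. The code was tested on simulated data. Python 3.11.15, pandas 2.3.3 and Biopython 1.88 made the tables and promoter matches, and matplotlib 3.10.9 the figures.

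Of 24532 gene IDs 24462 matched a symbol in the reference table of GRCm38.p6 (mm10), and 24307 overlapped their reference interval. Coordinates are those of the files, counted from 1. Named genes were the 10 called genes with the largest TPM difference in each direction (histone, small RNA and ribosomal RNA genes left out), the 10 with the smallest adjusted p in each direction at a log2 change of 1 or more, up to 6 called members of a list in each direction and 4 not called, and the genes of the sort. Cd79a, Cd3d and further genes named outside this rule were chosen after their values were seen. The comparison, the gene lists and the genes were chosen with earlier results of these data known. Lists were counted and not tested. Some list members are counted but not reported here by name. Alternatives covered the pseudocount, the filter, FPKM, quantile and median-of-ratios scaling, histone genes, the variance model, the replicate block and each library left out.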

Additional observations from a re-analysis of the deposited data

How the results depend on the processing

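Against 714 genes higher and 345 lower as reported, FPKM gave 335 higher, quantile normalization 340, median-of-ratios factors 391, eBayes without a trend 419 and the spread of all 6 libraries 221, and the count of lower genes was 225 with a mean TPM of 5 or more and 89 with the spread of all 6 libraries. With no filter on low values 0 genes were higher and 1 lower (2146 had an unadjusted p under 0.05), and with each gene's own spread, an alternative added after seeing the data, 0 and 0. Leaving out 1 library gave 60 to 785 genes higher and 89 to 141 lower, and the lone library of a group was then assumed to vary like the others. A pseudocount of 0.1, a rescaling without histone genes and a robust trend (also added after seeing the data) kept both counts within 1.5 times. The median prior degrees of freedom, infinite as reported, were 2.83 with no filter, 6.66 with the spread of all 6 libraries and 0 with each gene's own spread. Without a trend they stayed infinite. The cause of the differences between settings was not tested. Of the 230 named genes, 179 kept their direction and their side of the threshold with median-of-ratios factors, 142 with the spread of all 6 libraries, and 117, 127, 177 and 105 without BaP replicate 1, BaP replicate 2, MAR1HI replicate 1 and MAR1HI replicate 2. The log2 change of Mcpt8, -0.02 as reported, was 0.21 after quantile normalization, 0.16 without BaP replicate 2 and 0.18 without MAR1HI replicate 2. That of Prss34, -0.14 as reported, was 0.08, 0.12 and 0.16. With each library left out they ranged from -0.22 to 0.18 and from -0.44 to 0.16. Without BaP replicate 2 the change was -0.10 for H3c15, -2.75 for H2ac19 and -0.68 for Hbb-b1, against 4.07, 2.90 and 2.997 as reported, and the highest values with a library left out were 8.24, 8.56 and 6.68.

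With the replicate number as a block 905 genes were higher and 449 lower. The labels do not say that a number marks a shared animal, batch or day, the deviations of same-numbered libraries correlated at 0.163 across genes, and with 2 numbers this does not show a pairing. TPM without read counts gives no counting error, so calls at levels near 1 TPM are limited by an unknown number of reads.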

Other observations

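Some of the genes called with every library left out in turn belong to none of the gene lists and are given here as values, chosen after their values were seen. Prkcq, the protein kinase C isoform of T cell receptor signals, stood at 9.54 and 8.12 TPM in BaP and 49.3 and 60.04 TPM in MAR1HI (log2 change 2.50 ± 0.37 SE). Cd226, an activating adhesion receptor of NK cells and platelets, stood at 18.9 and 17.96 TPM in BaP and 80.6 and 111 TPM in MAR1HI (log2 change 2.30 ± 0.34 SE). The inward rectifier potassium channel Kcnj2 stood at 45.2 and 40.8 TPM in BaP and 234 and 235 TPM in MAR1HI (log2 change 2.42 ± 0.30 SE), with close duplicates in both groups. Aqp9, a channel for water and glycerol, stood at 26.4 and 28.3 TPM in BaP and 103 and 185 TPM in MAR1HI, and the mucin Muc20 at 6.47 and 9.41 TPM in BaP and 53.3 and 72.8 TPM in MAR1HI. Gimap8, a GTPase of the immunity-associated family, stood at 2.70 and 2.37 TPM in BaP and 21.1 and 18.4 TPM in MAR1HI. Vcl, the vinculin of focal adhesions, stood at 62.8 and 73.4 TPM in BaP and 199 and 246 TPM in MAR1HI, and the tropomyosin Tpm4 at 57.7 and 38.7 TPM in BaP and 206 and 219.7 TPM in MAR1HI. All MAR1HI values of these 8 genes lay above all BaP values, and each was called under all 4 scalings.

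Genes lower in MAR1HI outside the lists included Clec4a3, a lectin receptor of myeloid cells, at 51.6 and 31.4 TPM in BaP and 1.49 and 2.60 TPM in MAR1HI (log2 change -3.79 ± 0.41 SE). The neighbouring membrane protein genes Tmem176a and Tmem176b stood at 52.7 and 29.3 TPM in BaP and 4.37 and 5.48 TPM in MAR1HI and at 33.9 and 32.8 TPM in BaP and 2.87 and 3.13 TPM in MAR1HI. Mpeg1, which encodes the pore-forming perforin-2 of macrophages, stood at 98.9 and 83.8 TPM in BaP and 15.9 and 19.6 TPM in MAR1HI, and Gsto1, a glutathione transferase, at 133 and 117 TPM in BaP and 21.02 and 25.5 TPM in MAR1HI (log2 change -2.38 ± 0.32 SE). These 5 genes were called under all 4 scalings. Summed monocyte and macrophage markers were lower in MAR1HI as well, at 1050 and 1413 TPM in BaP and 732 and 863 TPM in MAR1HI, and their part in these falls was not tested.

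Among enzymes of DNA methylation and Polycomb complexes 3 of 28 tested members rose and 1 fell, of which 1 and 0 were stable under scaling. Tet2, a methylcytosine dioxygenase, stood at 45.5 and 52.4 TPM in BaP and 75.03 and 128 TPM in MAR1HI, and Eed, a core Polycomb subunit, at 42.9 and 40.7 TPM in BaP and 66.1 and 124 TPM in MAR1HI, with MAR1HI replicate 2 well above replicate 1 in both. Neither was called under all scalings, and with BaP replicate 1, BaP replicate 2, MAR1HI replicate 1 and MAR1HI replicate 2 left out 0, 0, 3 and 0 members of the list rose.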
